A study of Homo sapiens with 4 samples.

Results

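Alternative 3′ splice site events, in which 1 donor is joined to either of 2 acceptors, were examined in A549 cells, a line from a human lung adenocarcinoma, with the splicing factor RBM10 depleted or at its wild-type level. Events were taken from the deposited splicing table where the annotation was exactly alternative 3′ splice site and all 4 libraries had a value. This gave 402 of 3768 listed events (3744 of which had all values), and they covered 320 acceptor pairs in 307 genes. Each event holds the PSI (percent spliced in) of 1 examined junction. It was taken as the share of that junction in the reads of the competing junctions, though the sources used do not state the denominator. Every one of the 402 events had its 2 junctions at the same donor, which fits the label.

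The study compared 2 RBM10 knockdown libraries with 2 RBM10 wild-type libraries of the same line. Knockdown cells carried 1 lentiviral shRNA against RBM10 and had been selected with puromycin at 1 µg/mL for 10 to 14 days. Whether the wild-type cells had a control vector or drug selection is not stated, so effects of transduction and selection cannot be told apart from those of RBM10 loss. Poly-A RNA was sequenced as stranded paired-end libraries of about 40000000 reads of 100 bp each, and all libraries carry the same batch label. Nothing in the labels says that the 2 libraries of a group came from separate cultures, so each p-value sets a difference against the spread of these libraries alone, which can be technical.

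The 3′ end of an intron is recognised through a branch point bound by SF1 and then by the U2 snRNP with its SF3B complex, a polypyrimidine tract bound by U2AF2, and the terminal AG dinucleotide contacted by U2AF1. When 2 AGs lie close together both can follow the same branch point and tract, and the choice between them falls at the second catalytic step of splicing. Acceptors that lie far apart each have their own branch point and tract, and RBM10, like its relatives RBM5 and RBM6, is best known as a regulator of cassette exon inclusion that binds RNA near splice sites.

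Below, the acceptor nearer to the donor is called the upstream acceptor. Where the bases between both acceptors lie within 1 exon, its use keeps them and gives the longer exon. That held in the annotation for 293 of the 320 pairs. The pairs with the largest differences show both kinds of arrangement. In a tandem pair the acceptors lie 3 bp apart and share 1 intron end. The 4 tandem pairs with the largest differences are shown as they read in the mRNA spliced at the upstream acceptor, with 12 bases of the donor exon, then in capitals the 3 bases between the acceptors that are lost when the downstream acceptor is used, then 12 bases of the shared exon. Sequences were read from GENCODE v29 transcripts on hg38, and the positions are those of the capitals.
MOK, chr14:102250988-102250990, minus strand: atactaataaagCAGgatgtcctgaaa
ANKRD36, chr2:97224806-97224808, plus strand: catccacaccagCAGaacaagacttag
KAT14, chr20:18161820-18161822, plus strand: tgaaaataaaagCAGcctcaaaaccaa
ZNF30, chr19:34933625-34933627, plus strand: tggtgtcaatggCAGgacattcccgtt
All 4 have CAG as the last bases of the intron of the downstream acceptor. For ZNF30 the intron end of the upstream acceptor lies in another annotated exon and was read as well, with both acceptor trinucleotides in capitals.
ZNF30 genomic, chr19:34933622-34933639, plus strand: AAGCAGgacattcccgtt

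In the more distant pairs each acceptor has its own tract. For these pairs, 23 bases before the acceptor and 7 bases of the exon are shown, with the last 3 bases of the intron in capitals. The 4 pairs shown are those with the largest differences for which the intron ends of both acceptors could be read.
STK36 downstream, chr2:218692560-218692589, plus strand: ttactctttgcttttctccaCAGgagcccc
STK36 upstream, chr2:218692464-218692493, plus strand: ctgcattcttcccactccctTAGgttccct
RASSF7 downstream, chr11:563535-563564, plus strand: cctcagcctgtgtcctcccgCAGtggcccc
RASSF7 upstream, chr11:563373-563402, plus strand: caagctgacttcccaacccaCAGggccctc
ASB8 downstream, chr12:48149992-48150021, minus strand: taatagttcctccctttttaCAGgtgaatg
ASB8 upstream, chr12:48150134-48150163, minus strand: catatcttcatctttatcacCAGgactccc
BRSK2 downstream, chr11:1460947-1460976, plus strand: gcttgtttccactctgatacCAGgaattat
BRSK2 upstream, chr11:1460525-1460554, plus strand: cgtaattaaacaacttttttCAGacgagaa

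The acceptors of a pair lay 3 to 36834 bp apart, with a median of 30 bp. A distance of exactly 3 bp was found in 100 of the 320 pairs, 4 to 20 bp in 45, 21 to 100 bp in 77 and over 100 bp in 98, 18 of which were over 1000 bp. The distance was a multiple of 3 in 201 pairs (62.8%), and in 101 of the 220 pairs over 3 bp (45.9%). In GENCODE v29, both acceptors were annotated in 270 pairs and the bases between them lay within 1 annotated exon in 293. Of the 100 tandem pairs, 82 had at least 1 of those 3 bases in coding sequence, where the choice can add or remove 1 codon, while 6 lay in a 5′ UTR and 3 in a 3′ UTR. Of the 98 pairs over 100 bp, 53 overlapped coding sequence, where an overlap of any length was counted. Of the others, 11 lay in a 5′ UTR, 4 in a 3′ UTR and 14 in a coding exon but outside its annotated coding sequence, with 16 elsewhere.

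The acceptors that could be read were nearly uniform. Bases were read only where an annotated exon covers them, which left out most upstream intron ends, so these counts do not describe all 320 pairs. All 297 downstream acceptors that could be read ended in AG, as did 109 of 110 upstream acceptors, the exception being in BANP, whose acceptors lie 9 bp apart. In 93 tandem pairs the downstream trinucleotide was read, and it was CAG in 72 (77.4%), AAG in 12 and TAG in 9. Among pairs over 3 bp it was CAG in 158 of 204 (77.5%), so the 2 shares were nearly the same. Both tandem trinucleotides could be read in 24 pairs, of which 12 were CAG followed by CAG, 4 TAG followed by CAG, 3 AAG followed by CAG and 3 AAG followed by AAG, with 1 each of CAG followed by TAG and TAG followed by AAG.

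The table lists 215 events from the upstream junction and 187 from the downstream junction, and 82 pairs from both. Where a pair was listed from both, the PSI of both junctions summed to within 0.02 of 1 in 231 of 328 library values (70.4%), with a lowest sum of 0.595. Junctions beyond the pair may have entered some denominators, which was not tested, and the PSI of each junction is given as deposited. In 77 of these 82 pairs the 2 junctions differed between the groups in opposite directions. Each pair was counted once below, by the junction with the larger difference, and signed so that a positive difference means more use of the upstream acceptor in knockdown cells.

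No alternative 3′ splice site event passed limma's test at a Benjamini-Hochberg adjusted p under 0.05 with a PSI difference of 0.1 or more, and 0 of 3744 events of any kind did so (0%). The smallest adjusted p was 0.208 among these events and 0.0543 among all events. At an unadjusted limma p under 0.05, 47 of 402 alternative 3′ splice site events (11.7%) differed by 0.1 or more, against 19.2% of all events, and leaving out 1 library gave 16 to 33 in place of 47. Limma without a variance trend and limma on the logit of PSI also called 0 of the 402 events after adjustment, with 4 calls among all events in each case. The median absolute difference was 0.134 for the 402 events and 0.144 for all events.

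In 204 of the 402 events (50.7%) both knockdown values lay above or both below the wild-type values with a difference of 0.1 or more, near the 53.5% of all events. Among alternative 5′ splice site events the shares were 43.9% without overlap and 11.1% past the unadjusted limma test, among cassette exons 57.7% and 20.1%, and among intron retention events 48.6% and 24.5%. The table lists only events that vary by 0.15 or more among the libraries, which raises all these shares. Counts of events whose groups do not overlap are used below as descriptions of the libraries, without a test.

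The direction of the differences went with the distance between the acceptors. Of the 320 pairs, 163 (50.9%) did not overlap, with the upstream acceptor higher in knockdown cells in 87 (27.2%) and lower in 76 (23.8%), and the median difference over all pairs was 1.00 points of PSI. Of the 100 tandem pairs 3 bp apart, 11 (11%) had the upstream acceptor higher in knockdown cells and 31 (31%) had it lower, with a median difference of -6.98 points. Pairs 4 to 20 bp apart were split 7 higher and 13 lower of 45, with a median of -6.54 points. Pairs 21 to 100 bp apart were split 25 higher and 15 lower of 77, with a median of 4.91 points. Of the 98 pairs over 100 bp apart, 44 (44.9%) had the upstream acceptor higher and 17 (17.3%) had it lower, with a median of 8.50 points. Knockdown cells thus showed more use of the downstream acceptor more often where the acceptors were 3 bp apart, and of the upstream acceptor more often where they were far apart. Pairs 4 to 20 bp apart leaned like the tandem pairs, but not beyond the spread between replicates, as given below. The difference between distance classes was not tested, and pairs are not replicates of the condition.

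**Figure D1:**
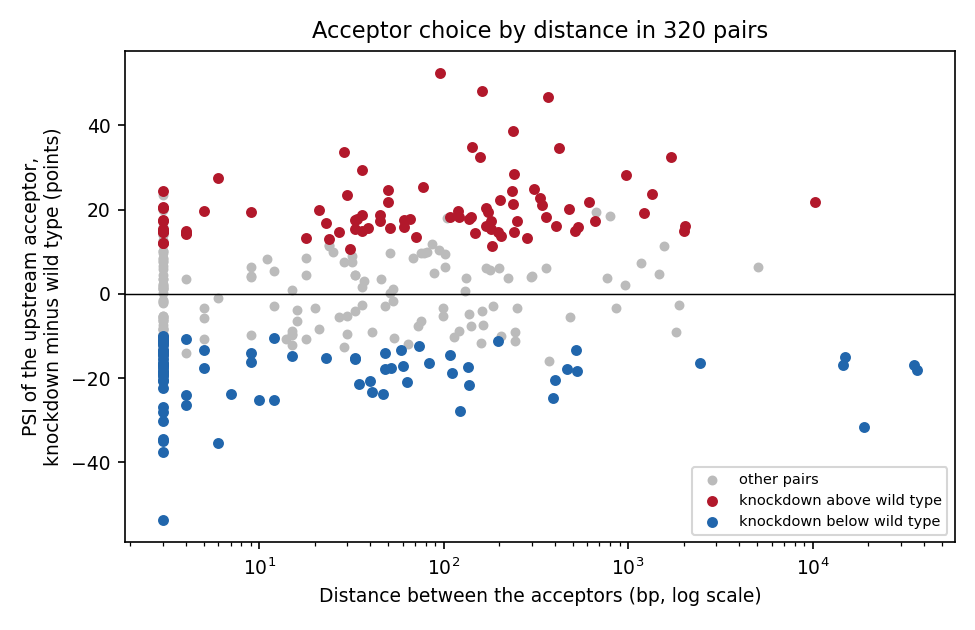
Difference in PSI of the upstream acceptor, knockdown minus wild type in points (vertical axis), against the distance between the acceptors in bp on a log scale (horizontal axis), 1 point for each of 320 pairs. Coloured points are pairs whose groups do not overlap with a difference of 10.0 points or more; of those 3 bp apart 11 lie above 0 and 31 below, and of those over 100 bp apart 44 lie above and 17 below.

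The split ran the same way from either listed junction, but 82 pairs are in both listings, so these are not separate evidence. Among events that examine the upstream acceptor, 7 tandem events had it higher and 20 lower of 63, and 32 events over 100 bp had it higher and 11 lower of 69. Among events that examine the downstream acceptor, the upstream acceptor was counted as higher in 5 and lower in 16 of 59 tandem events, and as higher in 24 and lower in 9 of 51 events over 100 bp. Of pairs past the unadjusted limma p of 0.05, 0 tandem pairs had the upstream acceptor higher and 7 had it lower, against 18 higher and 5 lower among the 175 pairs over 20 bp. These were 7% of the tandem pairs and 13.1% of the pairs over 20 bp, both below the 19.2% of all events. Leaving out 1 library gave 1 to 8 tandem pairs in place of 7, with the lowest count without wild-type replicate 2.

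**Figure D2:**
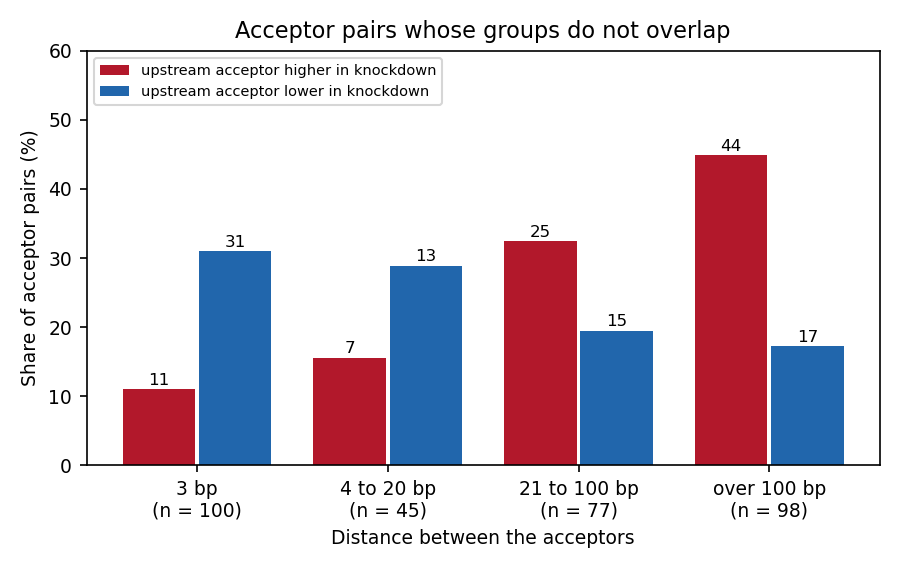
Share of acceptor pairs in percent (vertical axis, from 0) whose groups do not overlap with a difference of 0.1 or more, by distance class (horizontal axis, with the number of pairs), split into the upstream acceptor higher (red, left) and lower (blue, right) in knockdown cells. Numbers above the bars count pairs; the higher share grows from 11% at 3 bp to 44.9% over 100 bp.

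The typical level in each library showed the same ordering. Over the 63 tandem events that examine the upstream acceptor, the median PSI was 50.0% and 49.5% in the knockdown libraries, against 56.25% and 59.4% in the wild-type libraries. Over the 69 events over 100 bp apart it was 55.2% and 55.6% in the knockdown libraries, against 42.4% and 48.4% in the wild-type libraries. Over all 215 such events it was 51.0% and 51.1% in the knockdown libraries, against 50.0% and 52.5% in the wild-type libraries. The groups lay apart in either distance class and in opposite directions, and overlapped when the classes were pooled. Over the 59 tandem events that examine the downstream acceptor its median PSI was 51.0% and 46.3% in the knockdown libraries, against 41.35% and 49.35% in the wild-type libraries, and these medians overlap. Over the 51 such events over 100 bp apart it was 47.7% and 42.2% in the knockdown libraries, against 49.0% and 48.0% in the wild-type libraries.

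Each knockdown library was also set against each wild-type library. Over the 100 tandem pairs, the median difference in PSI of the upstream acceptor was -4.70 and -7.22 points for knockdown replicate 1 minus wild-type replicates 1 and 2, and -6.69 and -2.26 points for knockdown replicate 2 minus the same libraries. Within the groups, replicate 2 minus replicate 1 was 0.0825 points in knockdown and 0.0451 points in wild type. Over the 175 pairs over 20 bp the same 4 differences were 6.23, 7.67, 6.53 and 9.68 points, with 1.44 points between the knockdown libraries and -1.81 points between the wild-type libraries. In these classes all 4 differences between groups were larger than those within groups. Over the 45 pairs 4 to 20 bp apart the 4 differences ran from -14.0 to 2.08 points, with -5.09 points between the knockdown libraries and 5.33 points between the wild-type libraries, so the direction there did not exceed the spread between replicates.

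**Figure D3:**
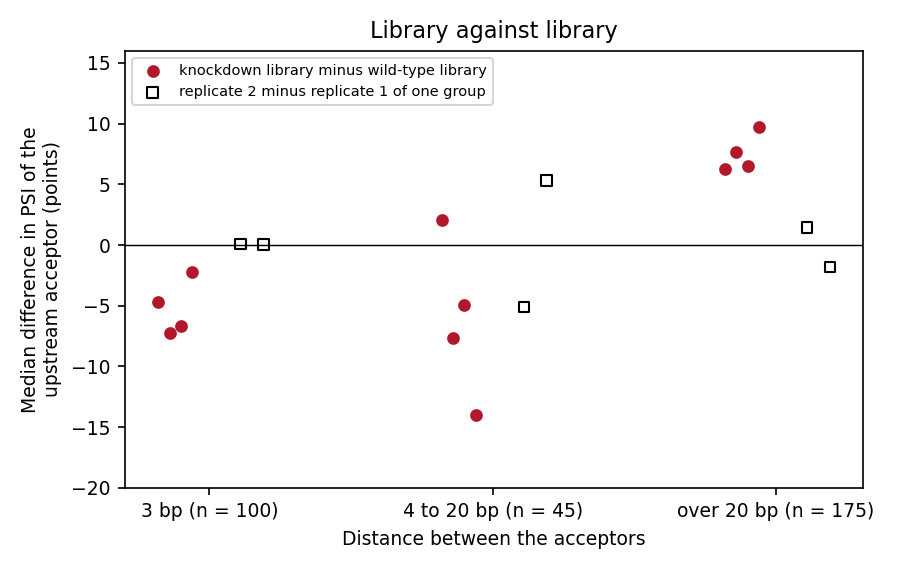
Median difference in PSI of the upstream acceptor in points (vertical axis) over the pairs of 3 distance classes (horizontal axis). Red points are each knockdown library minus each wild-type library, open squares are replicate 2 minus replicate 1 within a group; the red points lie between -7.22 and -2.26 at 3 bp and between 6.23 and 9.68 over 20 bp, apart from the squares, and straddle 0 at 4 to 20 bp.

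Most tandem pairs with CAG or TAG downstream that did not overlap had the upstream acceptor lower in knockdown cells. With CAG downstream, 7 pairs had the upstream acceptor higher in knockdown cells and 23 had it lower of 72, with a median of -8.35 points. With TAG, 1 pair had it higher and 5 lower of 9, with a median of -12.2 points, and with AAG 3 had it higher and 3 lower of 12, with a median of 4.94 points. Over the 41 CAG events listed from the upstream junction, the median PSI was 47.1% and 45.8% in the knockdown libraries, against 54.4% and 60% in the wild-type libraries. Over the 10 such AAG events it was 70.8% and 65.6% in the knockdown libraries, against 64.2% and 65.7% in the wild-type libraries. Over the 7 such TAG events it was 58.3% and 63.0% in the knockdown libraries, against 63.2% and 75% in the wild-type libraries. The groups lay apart for CAG and overlapped for AAG. For TAG they barely parted, with 63.0% in knockdown next to 63.2% in wild type, closer than the replicates of either group. TAG and AAG had few events, and the difference between trinucleotides was not tested. All 7 tandem pairs past the unadjusted limma test had CAG downstream, as did 72 of all 93 tandem pairs read (77.4%).

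The largest tandem difference was in MOK, which encodes a kinase related to the MAP kinases. PSI of the upstream acceptor was 39.3% and 32.1% in the knockdown libraries, against 88.9% and 90.0% in the wild-type libraries, a difference of -53.7 points (SE 9.38, limma adjusted p = 0.208). Wild-type cells thus mostly kept the CAG shown above and knockdown cells mostly left it out, with no overlap of the groups. MOK mRNA was 1.49 and 1.32 RPKM in the knockdown libraries, against 1.54 and 1.31 RPKM in the wild-type libraries, so its level did not differ beyond the spread.

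The 6 other tandem pairs past the unadjusted limma test had the same direction. In ANKRD36, a member of an ankyrin repeat family with near-identical copies between which reads may be split, the upstream acceptor was at 42.1% and 30% in knockdown, against 64.0% and 83.3% in wild type (limma adjusted p = 0.249). In ZNF30, a zinc finger gene, it was at 17.2% and 25.8% in knockdown, against 43.2% and 68.75% in wild type (limma adjusted p = 0.249). In SYNE2, which encodes the nuclear envelope protein nesprin-2, it was at 43.2% and 35.9% in knockdown, against 73.7% and 61.5% in wild type (limma adjusted p = 0.249). None of these groups overlapped, and the wild-type libraries of ANKRD36 and ZNF30 lay further from each other than the knockdown libraries did. ZNF30 mRNA was 0.916 and 1.76 RPKM in knockdown, against 1.51 and 0.960 RPKM in wild type. SYNE2 mRNA was 0.947 and 1.60 RPKM in knockdown, against 0.711 and 0.797 RPKM in wild type. At such levels few reads may stand behind a PSI.

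For the remaining tandem pairs of this kind the downstream acceptor was the examined one. KAT14, which encodes a subunit of the ATAC acetyltransferase complex, had the downstream acceptor at 66.7% and 74.4% in knockdown, against 46.0% and 25% in wild type (limma adjusted p = 0.249). The upstream junction of KAT14, listed as well, was at 33.3% and 25.6% in knockdown, against 54.0% and 75% in wild type. ZNF181, another zinc finger gene on chromosome 19, had the downstream acceptor at 52.9% and 75.5% in knockdown, against 39.3% and 28.6% in wild type (limma adjusted p = 0.253). HECTD4, which encodes a HECT domain protein, had it at 64.3% and 62.3% in knockdown, against 39.6% and 33.3% in wild type (limma adjusted p = 0.249). In each of the 3 genes both knockdown libraries lay above both wild-type libraries, and adjusted p for the 7 tandem pairs was 0.208 or higher. ZNF181 mRNA was low as well, at 1.05 and 1.18 RPKM in knockdown, against 0.826 and 0.5515 RPKM in wild type.

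Other tandem pairs without overlap went either way and were not past the unadjusted limma test. RALGAPB, a subunit of a GTPase-activating complex for Ral proteins, had AAG downstream and the upstream acceptor at 67.6% and 53.7% in knockdown, against 30.5% and 41.9% in wild type (limma adjusted p = 0.270). CLK2, a kinase of SR splicing proteins, had CAG followed by CAG and the upstream acceptor at 68.4% and 68.9% in knockdown, against 43.7% and 52.3% in wild type (limma adjusted p = 0.275). Both went against the direction of most tandem pairs. USP48, a deubiquitinase, had the downstream acceptor at 46.4% and 30.8% in knockdown, against 17.5% and 18.4% in wild type (limma adjusted p = 0.275). ZDHHC20, a palmitoyltransferase, had TAG downstream and the upstream acceptor at 51.0% and 46.15% in knockdown, against 63.2% and 75% in wild type (limma adjusted p = 0.280). These went with the majority.

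Among distant pairs the largest difference was in STK36, the human homolog of the fly Hedgehog pathway kinase Fused. Its acceptors lie 96 bp apart, and the bases between them (chr2:218692487-218692582, plus strand) fall in a coding exon but outside annotated coding sequence. PSI of the downstream acceptor was 43.3% and 37.5% in the knockdown libraries, against 85.7% and 100.0% in the wild-type libraries, a difference of -52.4 points (SE 9.78, limma adjusted p = 0.208). The upstream junction, which GENCODE v29 does not annotate, was at 48.0% and 55.0% in knockdown, against 14.3% and 0% in wild type. In 1 wild-type library no use of the upstream acceptor was listed, but the reads behind a PSI are unknown and no limit can be given. STK36 mRNA was 2.93 and 3.41 RPKM in knockdown, against 2.77 and 2.56 RPKM in wild type.

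RASSF7, which encodes a Ras association domain protein, and MPHOSPH8, which encodes a reader of methylated histone H3 lysine 9 in the HUSH silencing complex, were the next. In RASSF7 the upstream acceptor, 162 bp from the downstream one, was at 84.4% and 85.7% in knockdown, against 27.3% and 46.55% in wild type, a difference of 48.1 points (SE 10.7, limma adjusted p = 0.249). In MPHOSPH8 the downstream acceptor, 366 bp from the upstream one, was at 48.15% and 44.1% in knockdown, against 91.2% and 94.4% in wild type, a difference of -46.7 points (SE 8.66, limma adjusted p = 0.208). In these genes the bases between the acceptors overlap annotated coding sequence (chr11:563396-563557 and chr13:19670840-19671205, both plus strand) and their number is a multiple of 3. The groups stood well apart in both. RASSF7 mRNA was 7.48 and 6.61 RPKM in knockdown, against 6.65 and 7.46 RPKM in wild type, and MPHOSPH8 mRNA 3.39 and 3.63 RPKM in knockdown, against 4.33 and 2.99 RPKM in wild type, so neither host gene differed beyond its spread.

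ASB8, an ankyrin repeat protein with a SOCS box, and BRSK2, a kinase of neuronal polarity, were listed from both junctions. The downstream acceptor of ASB8 was at 59.1% and 46.0% in knockdown, against 94.5% and 80.5% in wild type (limma adjusted p = 0.249), and its upstream acceptor, 142 bp away, at 29.1% and 40.8% in knockdown, against 1.15% and 6.67% in wild type. The downstream acceptor of BRSK2 was at 47.7% and 31.9% in knockdown, against 70.0% and 79.2% in wild type (limma adjusted p = 0.249), and its upstream acceptor, 422 bp away, at 46.15% and 47.2% in knockdown, against 6.67% and 20.8% in wild type. Both junctions of each gene thus gave the upstream acceptor more use in knockdown cells. ASB8 mRNA was 0.503 and 0.476 RPKM in knockdown, against 0.5925 and 0.5455 RPKM in wild type. That was too low for the expression test, so few reads may stand behind its PSI. The upstream acceptor of BRSK2 follows a run of 6 T in the sequence shown above, and that of ASB8 ends in CAG like the downstream one.

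Further distant pairs with the upstream acceptor higher in knockdown were past the unadjusted limma p of 0.05 but not past the adjusted test. ELMO2, a partner of DOCK proteins in cell motility, had its upstream acceptor in the 5′ UTR at 75% and 75.6% in knockdown, against 46.1% and 37.3% in wild type, and its downstream acceptor at 7.81% and 13.3% in knockdown, against 26.97% and 30.5% in wild type. MPPE1, a phosphoesterase of GPI anchor remodelling, had its upstream acceptor at 60.6% and 86.0% in knockdown, against 42.4% and 39.2% in wild type. In both genes the groups did not overlap, although the knockdown libraries of MPPE1 were far apart from each other.

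MOSPD2, a protein of contact sites of the endoplasmic reticulum, had its downstream acceptor at 13.8% and 27.8% in knockdown, against 46.7% and 60% in wild type. TAOK2, a kinase of the MAP kinase pathway, had its downstream acceptor at 43.1% and 56.6% in knockdown, against 77.8% and 79.0% in wild type, and its upstream junction is not in GENCODE v29. KLHL17, a kelch-like actin-binding protein, had its downstream acceptor at 40.2% and 41.3% in knockdown, against 65.6% and 66.7% in wild type. The upstream junction of KLHL17 is annotated in transcripts of the nonsense-mediated decay class alone.

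**Figure D4:**
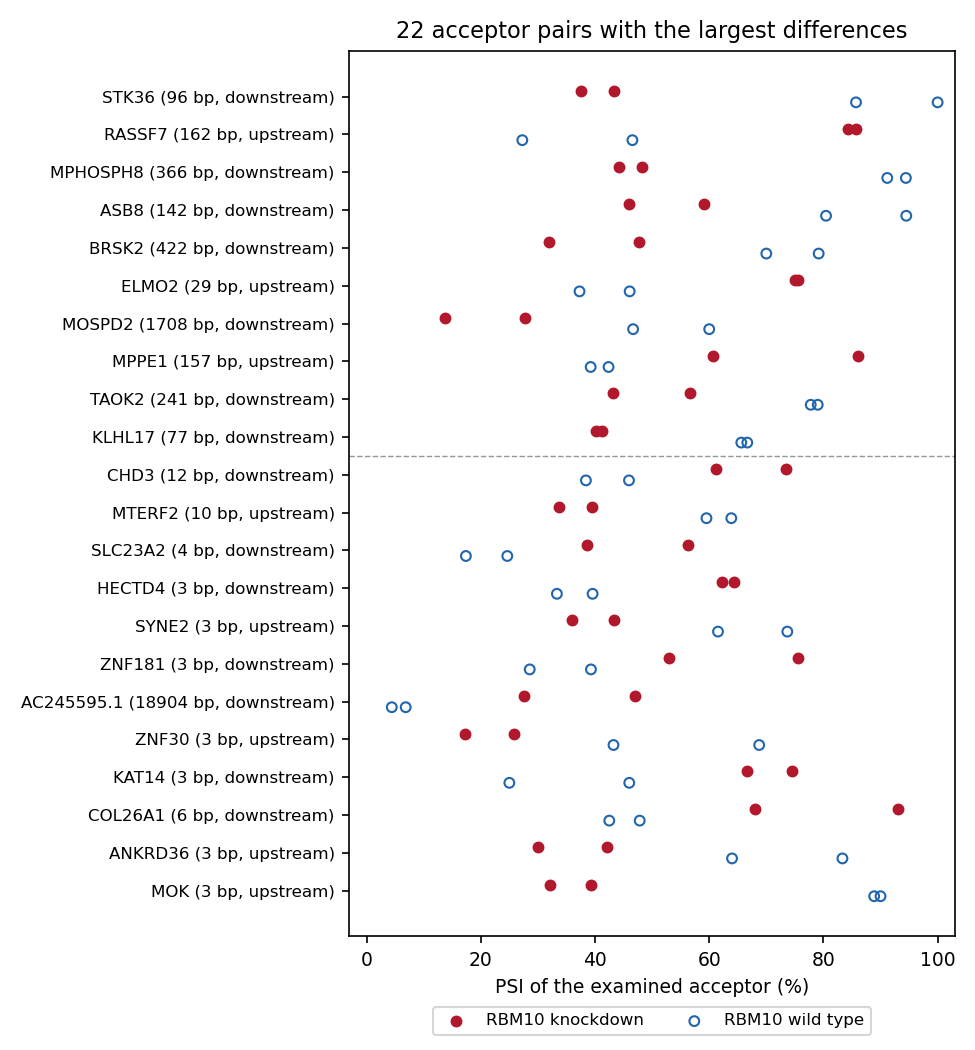
PSI of the examined acceptor in percent (horizontal axis) in each library for 22 of the 24 pairs with the largest differences past the unadjusted limma p of 0.05 (vertical axis, with distance and examined acceptor), knockdown as filled red points and wild type as open blue circles just below them. The 10 pairs above the dashed line had more use of the upstream acceptor in knockdown and are over 20 bp apart; of the 12 below it, 7 are 3 bp apart.

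Past the unadjusted limma p of 0.05, 20 pairs had the upstream acceptor higher and 16 had it lower, and the 12 largest of each direction were examined, 22 of which are shown in the plot of PSI by library. Pairs past that p of either direction were 11.2% of the 320, against 19.2% of all events. Of the 12 with the upstream acceptor higher, 11 were over 20 bp apart. Of the 12 with the upstream acceptor lower, 11 were 20 bp apart or less. The exception was the long noncoding RNA gene AC245595.1, listed as LINC02802 in the expression table, with acceptors 18904 bp apart and the downstream one at 47.0% and 27.5% in knockdown, against 4.41% and 6.85% in wild type. The adjusted limma p of all 24 lay between 0.208 and 0.256. MOK, STK36, RASSF7 and MPHOSPH8 stayed past the unadjusted p of 0.05 whichever library was left out, whereas KLHL17, SYNE2, HECTD4, CHD3 and MTERF2 lost it whichever of the 4 was left out.

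Of the 12 pairs with the upstream acceptor lower, 4 lay 4 to 12 bp apart. COL26A1, a collagen gene with acceptors 6 bp apart, had its downstream acceptor at 93.1% and 68.0% in knockdown, against 47.8% and 42.5% in wild type (limma adjusted p = 0.249), and its upstream acceptor, also listed, at 6.90% and 32.0% in knockdown, against 52.2% and 57.5% in wild type. SLC23A2 encodes a vitamin C transporter and has acceptors 4 bp apart in the 5′ UTR. Its downstream acceptor was at 56.4% and 38.7% in knockdown, against 17.4% and 24.6% in wild type (limma adjusted p = 0.253). CHD3 encodes a chromatin remodeller of the NuRD complex and has acceptors 12 bp apart. Its downstream acceptor was at 73.5% and 61.1% in knockdown, against 38.4% and 45.95% in wild type (limma adjusted p = 0.256). MTERF2, a mitochondrial protein of the mTERF family with acceptors 10 bp apart in the 5′ UTR, had its upstream acceptor at 39.4% and 33.7% in knockdown, against 59.5% and 63.9% in wild type (limma adjusted p = 0.253). All 4 gave the shorter exon more use in both knockdown libraries than in either wild-type library.

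Some genes held pairs of either direction, and the 2 given here were chosen after their values were seen. Besides the 96 bp pair, STK36 had a pair 63 bp apart further downstream, with the downstream acceptor at 52.6% and 54.2% in knockdown, against 39.1% and 25.6% in wild type (limma adjusted p = 0.275). FBF1, which encodes a protein of the ciliary base, had a pair 50 bp apart with the downstream acceptor at 65.1% and 57.8% in knockdown, against 87.8% and 84.4% in wild type (limma adjusted p = 0.249). Its tandem pair had the upstream acceptor at 38.3% and 34.15% in knockdown, against 42.9% and 56.25% in wild type (limma adjusted p = 0.440), and without wild-type replicate 2 that PSI difference was -0.0664. The tandem pair of FBF1 and the 63 bp pair of STK36 were not past the unadjusted limma test either. More than 1 pair was held by 12 genes.

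Genes of the 3′ splice site factor list or with RBM, SRSF or HNRNP names held 4 pairs, none past the unadjusted limma test. RBM33, an RNA-binding protein gene, had its downstream tandem acceptor at 72.1% and 85.0% in knockdown, against 47.1% and 65.15% in wild type (limma adjusted p = 0.275). DDX39B, a helicase that acts with U2AF2, had it at 85.0% and 64.7% in knockdown, against 65.8% and 62.2% in wild type (limma adjusted p = 0.535), and these groups overlap. RBM26, another RNA-binding protein gene, had its upstream acceptor at 20.5% and 17.65% in knockdown, against 21% and 36.4% in wild type, for the pair 30 bp apart (limma adjusted p = 0.536). For its pair 9 bp apart the upstream acceptor was at 48.9% and 80.0% in knockdown, against 54.4% and 66.7% in wild type, and the groups overlap (limma adjusted p = 0.877).

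Reading frame and annotation were compared within the 175 pairs over 20 bp, of which 69 had the upstream acceptor higher in knockdown and 32 lower. Where the distance was a multiple of 3, 32 pairs had it higher and 10 lower of 77, and where it was not, 37 had it higher and 22 lower of 98. Pairs whose bases between the acceptors overlap annotated coding sequence were split 43 higher and 16 lower of 101, those in a 5′ UTR 9 higher and 3 lower of 18, those in a coding exon outside its coding sequence 12 higher and 6 lower of 25, those in a 3′ UTR 0 higher and 1 lower of 6, and the others 5 higher and 6 lower of 25. In 26 pairs only the downstream junction is annotated in a protein-coding transcript, and these were split 13 higher and 5 lower. Of the 97 pairs with both junctions in protein-coding transcripts, 41 had the upstream acceptor higher and 14 had it lower. Where only the upstream junction is in a protein-coding transcript 10 had it higher and 6 lower of 27, and where neither is, 5 had it higher and 7 lower of 25. The upstream acceptor was higher more often than lower in all of these groups except the 3′ UTR, the others and the pairs with neither junction coding, and the differences between groups were not tested.

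The pyrimidine share of the bases before the acceptors was compared between the directions without a test, and its medians were alike at the downstream acceptor. For pairs over 20 bp, the pyrimidine share of the 20 bases before the last 3 of the intron of the downstream acceptor had a median of 70.0% where the upstream acceptor was higher in knockdown (65 read), 70.0% where it was lower (26 read) and 70.0% in the other pairs (68 read). At the upstream acceptor the medians were 75% (33 read), 67.5% (12 read) and 70.0% (27 read), with interquartile ranges of 60% to 80.0% in each. These windows hold part of the polypyrimidine tract only where the tract lies next to the AG.

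Where the bases between the acceptors lie within 1 annotated exon, the pairs over 100 bp were split 41 higher and 12 lower of 85. In the 13 that are not within 1 exon, such as AC245595.1, the split was 3 higher and 5 lower. Alternative 5′ splice sites are given beside these values, with the donor nearer to the acceptor counted as giving the longer exon. Whether the bases between the donors lie within 1 exon was not checked. Of 113 donor pairs over 100 bp apart, 41 had the longer exon higher in knockdown and 18 had it lower, of 68 donor pairs 21 to 100 bp apart 12 had it higher and 13 lower, and of 51 donor pairs 4 to 20 bp apart 11 had it higher and 5 lower. Donor pairs over 100 bp apart thus leaned the same way as acceptor pairs over 100 bp apart, with 44 higher and 17 lower of 98. That lean was therefore not particular to acceptors. Acceptor pairs 4 to 20 bp apart, with 7 higher and 13 lower of 45, were split the other way from donor pairs at that distance. Their direction did not exceed the spread between replicates, and the difference between acceptors and donors was not tested.

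RBM10 mRNA was 11.6 and 10.9 RPKM in the knockdown libraries, against 35.5 and 40.8 RPKM in the wild-type libraries, so the labels hold (log2 change -1.67, SE 0.11, limma adjusted p = 1.01e-05). Log2 changes are on the scale of log2(RPKM + 1), and 2271 of 10182 tested genes (22.3%) changed, 1555 higher (15.3%) and 716 lower (7.03%). Epithelial markers (KRT8, KRT18, KRT19, EPCAM, CDH1) and the enzymes AKR1B10 and ALDH1A1, listed as markers of the line, were above 1 RPKM in every library. They summed to 6716 and 7080 RPKM in knockdown, against 6086 and 5917 RPKM in wild type, but the sum hides members that moved apart. AKR1B10 alone was lower, with 1309 and 1442 RPKM in knockdown, against 2770 and 2687 RPKM in wild type. KRT18 was 1731 and 1855 RPKM in knockdown, against 890.3 and 972.7 RPKM in wild type. KRT8 was 688.6 and 666.1 RPKM in knockdown, against 325.2 and 370.5 RPKM in wild type. KRT19, EPCAM and ALDH1A1 were higher as well, while CDH1 was 3.23 and 3.40 RPKM in knockdown, against 3.17 and 2.78 RPKM in wild type. Of 8 markers of other cell types 3 had values, PECAM1 of endothelium and PDGFRB and LUM of fibroblasts, and they summed to 0.206 and 0.255 RPKM in knockdown, against 0.0274 and 0.0550 RPKM in wild type, while none of the blood markers had a value. In bulk RNA, fewer cells that express a gene and less RNA per cell cannot be told apart.

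Of 40 listed genes that recognise the 3′ splice site or choose the acceptor, 39 were tested and 8 changed (20.5%), near the 22.3% of all genes. Of these 1 was higher and 7 lower, with RBM10 itself, the target of the shRNA, among the lower ones. The balance was the other way over all tested genes, of which 15.3% were higher and 7.03% lower. After quantile normalization 1140 of all 10182 were higher and 1031 lower. The median log2 change was -0.14 over the 39 genes and 0.02 over all tested genes. U2AF2, the reader of the polypyrimidine tract, fell to 89.0 and 79.6 RPKM in knockdown, against 149.5 and 171.8 RPKM in wild type (log2 change -0.92, SE 0.11, limma adjusted p = 0.000283). SF1, the branch point protein, fell to 33.9 and 36.4 RPKM in knockdown, against 51.7 and 51.8 RPKM in wild type (log2 change -0.55, limma adjusted p = 0.00328). RBM10, U2AF2 and SF1 passed under every setting tried. The part of these changes in the acceptor differences was not tested.

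Subunits of the SF3B complex were lower in part. SF3B4 was 39.25 and 31.7 RPKM in knockdown, against 46.45 and 52.0 RPKM in wild type (limma adjusted p = 0.0217). SF3B3 was 31.0 and 33.9 RPKM in knockdown, against 45.6 and 40.75 RPKM in wild type (limma adjusted p = 0.0221). PHF5A was 24.1 and 23.7 RPKM in knockdown, against 28.8 and 34.05 RPKM in wild type (limma adjusted p = 0.0343). SF3B1, the largest subunit, was 33.7 and 37.0 RPKM in knockdown, against 38.1 and 29.8 RPKM in wild type, and did not pass the test (limma adjusted p = 0.742).

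Of the remaining factors, DHX16, a helicase of the spliceosome, was 14.25 and 14.0 RPKM in knockdown, against 18.9 and 18.3 RPKM in wild type (limma adjusted p = 0.0243). GPKOW, a partner of DHX16, was the gene that rose, with 20.4 and 20.8 RPKM in knockdown, against 15.6 and 16.9 RPKM in wild type (limma adjusted p = 0.044), and it no longer passed after quantile normalization, which left 0 higher and 8 lower. U2AF1, which contacts the AG, was 74.45 and 69.1 RPKM in knockdown, against 75.9 and 78.3 RPKM in wild type (limma adjusted p = 0.473). The RBM10 relatives RBM5 and RBM6 and the U2-associated RBM17 did not pass the test either (limma adjusted p = 0.539, 0.601 and 0.571). Leaving out either knockdown library reduced the changed factor genes to 4, all of them lower, and SF3B3, SF3B4, PHF5A and DHX16 each lost the call without at least 1 library.

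**Figure D5:**
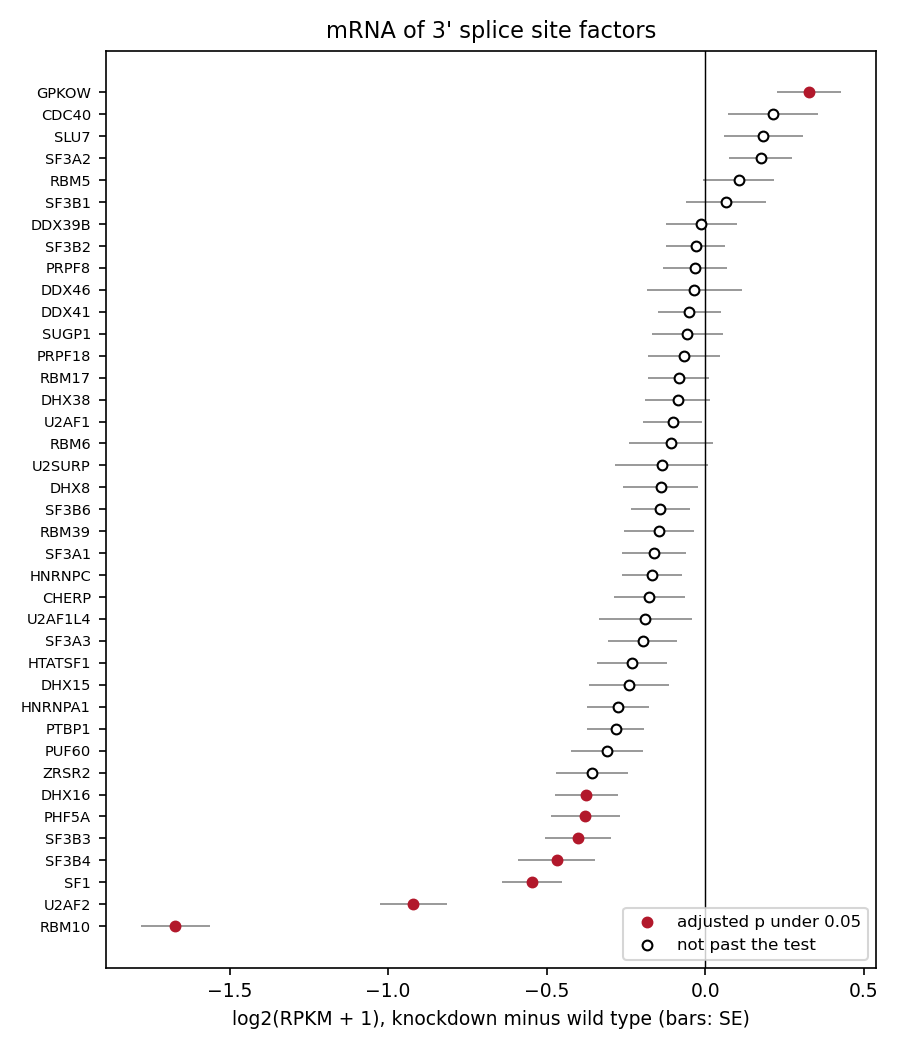
Log2 change in mRNA of 3′ splice site factor genes, knockdown minus wild type on the scale of log2(RPKM + 1) (horizontal axis, bars show the SE of limma's fit), 1 gene a row. Red points passed limma's test at an adjusted p under 0.05 and open points did not; RBM10 at -1.67 and U2AF2 at -0.92 lie lowest and GPKOW at 0.33 is the only red point above 0.

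The 307 host genes changed in expression at about the rate of all genes. Of 281 tested, 53 changed (18.9%), with 38 higher and 15 lower, and quantile normalization gave 25 higher and 26 lower, so the balance of directions rests on the scaling. CES1, a carboxylesterase, fell to 19.3 and 21.2 RPKM in knockdown, against 67.7 and 70.95 RPKM in wild type (log2 change -1.73, limma adjusted p = 5.31e-06), while its tandem downstream acceptor was at 62.8% and 46.0% in knockdown, against 46.5% and 51.7% in wild type. ACSL4, an acyl-CoA synthetase, rose to 9.08 and 10.5 RPKM in knockdown, against 3.52 and 2.72 RPKM in wild type (log2 change 1.39, limma adjusted p = 8.76e-05), and its tandem upstream acceptor was at 49.4% and 49.5% in knockdown, against 75% and 62.8% in wild type. The groups of acceptor values overlapped in CES1 and not in ACSL4. These 2 genes were chosen after their values were seen.

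Of the 24 host genes of the pairs with the largest differences, 22 were tested and 4 changed, all of them higher in knockdown, where 22.3% of all tested genes changed and 15.3% were higher. BRSK2 was 2.12 and 2.23 RPKM in knockdown, against 1.31 and 1.41 RPKM in wild type (log2 change 0.43, limma adjusted p = 0.0211). KLHL17 was 9.22 and 7.475 RPKM in knockdown, against 5.46 and 6.31 RPKM in wild type (log2 change 0.44, limma adjusted p = 0.0371). ANKRD36 was 2.005 and 3.22 RPKM in knockdown, against 1.63 and 1.32 RPKM in wild type (log2 change 0.53, limma adjusted p = 0.0431). LINC02802 (AC245595.1) was 14.3 and 11.9 RPKM in knockdown, against 5.71 and 6.80 RPKM in wild type (log2 change 0.96, limma adjusted p = 0.00072). BRSK2, KLHL17 and ANKRD36 lost the call after quantile normalization (limma adjusted p = 0.0923, 0.0689 and 0.0906), and ANKRD36 had a log2 change of 0.28 without knockdown replicate 2, while LINC02802 passed under every setting. The remaining 18 tested hosts, STK36 and MOK among them, did not pass the test. Levels differed widely among the hosts. ASB8 was too low to be tested, while CHD3 was at 31.9 and 37.65 RPKM in knockdown, against 27.4 and 27.5 RPKM in wild type.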

How the data were processed

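The authors deposited a table of junction events with, per the file headers, the PSI of 1 examined junction in each library as a fraction, and a table of gene values in the form of RPKM, a unit inferred from the values. Reads were aligned to hg38 with STAR 2.6.1, per the submitters' processing notes. No source used here gives the splicing caller, its read minimum, the denominator of PSI or the gene counter. The reads behind each deposited PSI fraction are unknown, so no interval for a single PSI was computed, and about 40000000 reads a library, per the labels' protocols, bound the precision.

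PSI of all 3744 events with 4 values was fitted with limma 3.58.1 in R 4.3.3 (two-sided, with a variance trend, and Benjamini-Hochberg adjustment over all events). RPKM was fitted as log2(RPKM + 1) where either group had a mean of at least 1 RPKM. With 2 libraries a group, an exact permutation test cannot go below p = 0.333, so none was used. Replicate numbers do not pair the libraries: deviations of same-numbered libraries correlated at -0.0396 for PSI and -0.444 for log2 RPKM. The negative value for log2 RPKM means that libraries of unlike number varied together in expression, from a source that was not tested. With a block of crossed numbers, 2466 of all tested genes were higher and 1730 lower. That block was not fitted to PSI. Acceptors were compared with GENCODE v29. Scripts were tested on simulated data. Named pairs were those without overlap of the groups, past an unadjusted limma p of 0.05 and at least 0.1 apart, up to 12 in each direction by size, then up to 12 tandem pairs, up to 6 pairs listed from both junctions, and pairs in splicing factor genes, of which examples are given; 2 of the named pairs are not reported here. The members, lists and rules were chosen with earlier results of these data known. Alternatives were leaving out each library, a replicate block, the logit of PSI, no trend, stricter ranges and differences, single-junction subsets, another pseudocount, no filter and quantile normalization.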

Additional observations from a re-analysis of the deposited data

How the results depend on the processing

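No adjusted call among alternative 3′ splice site events was made under any setting except the replicate block, which gave 5 (MOK, RASSF7, MPHOSPH8 and both junctions of STK36) of 99 among all events; the numbers do not pair the libraries. The 47 events past the unadjusted limma test became 16 to 33 when 1 library was left out (25 without knockdown replicate 1, 25 without wild-type replicate 1 and 16 without wild-type replicate 2) and 23 among events with a range of 0.25 or more. The 7 tandem pairs became 1 to 8 (3 and 2 without knockdown replicates 1 and 2, and 1 without wild-type replicate 2). A lone library was there assumed to vary like the other group. With a difference of 0.2 or more, 79 of the 204 events without overlap, 32 of the 87 pairs with the upstream acceptor higher and 26 of the 76 with it lower were left. The 76 were 50 from upstream-examined events alone and 45 without tandem pairs.

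As PSI fractions, the median over all pairs (0.010) was -0.00829 without knockdown replicate 1, -0.00146 without knockdown replicate 2, up to 0.010 over the libraries left out, and 0.0440 without tandem pairs. The tandem median (-0.0698) was -0.0458 without knockdown replicate 2 and -0.0462 without wild-type replicate 1, within -0.0807 to -0.0458 over the libraries left out, and that of pairs over 20 bp (0.0742) ran from 0.0695 to 0.0991, the highest without wild-type replicate 1, with 0.0974 from downstream-examined events. These medians, their subsets and the crossed block were added after seeing the data, and neither class median changed sign.

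The 53 changed host genes became 20 without the filter and 102 with a replicate block of crossed numbers, and 36 to 44 without 1 library. The 8 factor genes became 4 without the filter, 4 with the replicate block, 13 with the crossed block and 4 to 7 without 1 library. Without 1 library, the difference of RBM26 at 9 bp (0.0393) ran from -0.116 to 0.195 (-0.116 without knockdown replicate 2 and -0.0220 without wild-type replicate 1), the log2 change of SF3B1 (0.07) from -0.10 (without wild-type replicate 2) to 0.24 and that of RBM6 (-0.11) from -0.24 to 0.022 (without knockdown replicate 1). The PSI difference of the CES1 downstream acceptor (0.0528) ran from -0.0309 (without knockdown replicate 1) to 0.137. Of 292 alternative values of single pairs 208 kept direction and side of the threshold, 79 lost the unadjusted call, 2 gained it and 3 turned. The cause was not tested. The unknown read depth of each PSI and 2 libraries a group limit every call.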
